A study of Mus musculus with 13 samples.

Results

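The CCN and YAP-TEAD group examined here consisted of 10 genes (Ccn1, Ccn2, Ccn4, Ccn5, Ankrd1, Amotl2, Yap1, Wwtr1, Tead1 and Tead4) out of 16382 genes in the deposited table, and all 10 members were present in it. The group was chosen by measured values of these same libraries, since Ccn1 was lower after PEA. The comparison of PEA with vehicle is therefore given as a description for the members, with no p-value. PEA is palmitoylethanolamide, the amide that joins palmitic acid to ethanolamine. RNA-seq had been run on wild-type C2C12 cells, a mouse myoblast line that fuses into myotubes in low-serum medium. Both groups were differentiated myotubes that received either vehicle (DMSO, CON) or PEA at 10 µM from day 8 of differentiation for 24 h, with 6 libraries per group. The 6 libraries of each group came from 3 repeats of the experiment, with wells in duplicate. No label ties a library to its repeat, so the errors below measure the spread between libraries of a single cell line.

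CCN proteins are secreted matricellular proteins that bind integrins, syndecans and LRP receptors at the cell surface. YAP (Yap1) and TAZ (Wwtr1) are transcriptional coactivators that have no DNA-binding domain of their own and act mainly through the TEAD factors. The Hippo kinases phosphorylate YAP and TAZ and hold them outside the nucleus, while stretch, a stiff substrate and F-actin favour their nuclear entry. Ccn1, Ccn2, Ankrd1 and Amotl2 are widely used readouts of YAP and TAZ activity, and in muscle the pathway is known for its roles in myoblast proliferation and in the response to load. Phosphorylation, localization and protein were not measured here, and only mRNA levels are described.

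Library totals ran from 12354845 to 50397444 estimated counts with a median of 18420606, and CON replicate 1 was the deepest, 2.25 times the next library. On the first principal component of all tested genes CON replicate 2 (9.58) lay among the PEA libraries (5.61 to 19.98), while CON replicates 3 (-35.3) and 6 (-26.6) lay far from the other 3 CON libraries (-11.2 to -8.42). The myotube label was checked on 10 markers, whose summed normalized counts were 112655 to 170179 in CON and 119347 to 134579 in PEA. Of 8 macrophage and endothelial markers 7 were in the table, 1 was abundant enough to be tested (Cd68), and all 7 summed to 76.7 to 150 normalized counts in CON and 92.2 to 153 in PEA.

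Ccn1 (ENSMUSG00000028195, GRCm39 chr3:145352720-145355738, minus strand) encodes CYR61, an immediate-early matricellular ligand of integrins. Its normalized count ranged from 5571 to 6344 in CON, with a median of 5691, and from 4368 to 5535 in PEA, with a median of 4909. All 6 PEA libraries lay below all 6 CON libraries, although PEA replicate 1 (5535) came close to the lowest CON library. The means were 5781 ± 290 in CON and 4848 ± 429 in PEA (SD, n = 6 each), a log2 fold change of -0.25 (SE 0.06). The fold change was -0.26 without CON replicate 2, -0.25 without CON replicate 1 and -0.29 without PEA replicate 1. Its range over 21 alternative fits was -0.29 to -0.22.

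The bases just upstream of the Ccn1 transcript start are shown because Ccn1 is known as a direct TEAD target. The core TEAD motif, GGAATG, was searched on both strands from 250 bases before to 50 bases from the start (GENCODE canonical transcripts on GRCm39, the build of the files), and capitals mark the motif or its reverse complement, CATTCC. The sequence runs 5′ to 3′ on the strand of the gene and ends at the base before the start (chr3:145355739-145355988, minus strand).
Ccn1: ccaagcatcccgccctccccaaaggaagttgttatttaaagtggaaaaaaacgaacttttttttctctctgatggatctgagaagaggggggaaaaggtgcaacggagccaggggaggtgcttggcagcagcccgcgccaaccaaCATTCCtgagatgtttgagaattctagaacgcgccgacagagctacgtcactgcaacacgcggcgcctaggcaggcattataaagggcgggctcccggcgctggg
Ccn1 held 1 match, on the opposite strand, with its first base at position -105 when the start is 0.

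Ccn2 (ENSMUSG00000019997, chr10:24471333-24474900, plus strand) encodes CTGF, the family member best known for promoting fibrosis. It ranged from 1594 to 2167 normalized counts in CON (median 1891) and from 1387 to 1800 in PEA (median 1638). The groups overlapped, with 3 PEA libraries below the lowest CON library. The means were 1896 ± 212 and 1621 ± 170 (SD, n = 6 each), a log2 fold change of -0.22 (SE 0.08). Its range over the alternative fits was -0.27 to -0.18.

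Ccn4 (ENSMUSG00000005124, chr15:66763060-66795050, plus strand) encodes WISP1, a CCN protein first described as a WNT-induced product. It ranged from 3385 to 3833 normalized counts in CON (median 3512) and from 3262 to 3607 in PEA (median 3397). The groups overlapped, with 2 PEA libraries below the lowest CON library, and the log2 fold change was -0.07 (SE 0.04). Ccn5 (ENSMUSG00000027656, chr2:163662753-163675066, plus strand) encodes WISP2, which lacks the C-terminal domain that the other members carry. It ranged from 1117 to 1644 in CON (median 1264) and from 1234 to 1454 in PEA (median 1326). The PEA range lay wholly inside the CON range. Its log2 fold change was 0.02 (SE 0.08), and Ccn5 was the only member whose direction turned under an alternative, with a lowest value of -0.02.

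Ankrd1 (ENSMUSG00000024803, chr19:36089352-36097506, minus strand) encodes CARP, a stretch-responsive ankyrin repeat protein of the sarcomere and the nucleus. It ranged from 34325 to 42977 normalized counts in CON (median 37828) and from 36280 to 38191 in PEA (median 37270). The PEA range again lay inside the CON range. The means of 38322 ± 3197 and 37209 ± 854 (SD, n = 6 each) gave a log2 fold change of -0.04 (SE 0.05). Ankrd1 was thus close to level between the groups in the same libraries in which Ccn1 was separated.

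Amotl2 (ENSMUSG00000032531, chr9:102593836-102610617, plus strand) encodes an angiomotin-like scaffold that binds YAP and activates LATS kinases, and it is itself a YAP target that acts as negative feedback. It ranged from 2904 to 3670 normalized counts in CON (median 3405) and from 3501 to 4527 in PEA (median 3975). Amotl2 was higher in PEA, where 5 libraries lay above the highest CON library and PEA replicate 3 (3501) lay inside the CON range. The means were 3337 ± 333 and 4004 ± 351 (SD, n = 6 each), a log2 fold change of 0.27 (SE 0.07). The lowest CON values came from replicates 3 (2904) and 6 (2967), which stand apart on the first principal component, and the fold change was 0.23 without either of them. Its range over the alternative fits was 0.23 to 0.30. The signs of Ccn1 and Amotl2, 2 readouts of the same coactivators, were thus opposite.

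The bases upstream of the Amotl2 start are shown beside those of Ccn1 because the signs of these genes differed (chr9:102594653-102594866, plus strand, GRCm39). The beginning of the searched window lies in an exon of other Amotl2 transcripts and was left out here.
Amotl2: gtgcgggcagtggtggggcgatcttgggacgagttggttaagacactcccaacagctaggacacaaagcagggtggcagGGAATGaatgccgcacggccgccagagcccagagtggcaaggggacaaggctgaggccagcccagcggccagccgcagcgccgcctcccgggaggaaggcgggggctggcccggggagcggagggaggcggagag
The match shown begins at -135, and the other lies in the part left out, beginning at -235. The promoters of the lower and of the higher gene therefore both held the motif letters.

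Yap1 (ENSMUSG00000053110, chr9:7932000-8004661, minus strand) ranged from 2277 to 2610 normalized counts in CON (median 2525) and from 2259 to 2454 in PEA (median 2396). The groups overlapped, with 2 PEA libraries below the lowest CON library and 4 CON libraries above the highest PEA library. Its log2 fold change was -0.06 (SE 0.04). Wwtr1, the gene of TAZ (ENSMUSG00000027803, chr3:57363067-57483331, minus strand), ranged from 3435 to 4083 in CON (median 3809) and from 3242 to 3511 in PEA (median 3411). Here 4 PEA libraries lay below the lowest CON library and 4 CON libraries above the highest PEA library. The means were 3774 ± 292 and 3384 ± 106 (SD, n = 6 each), a log2 fold change of -0.16 (SE 0.05). Its range over the alternative fits was -0.18 to -0.13.

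Tead1 (ENSMUSG00000055320, chr7:112278522-112506014, plus strand) encodes a TEAD factor that binds MCAT elements of muscle genes. It ranged from 1907 to 2530 normalized counts in CON (median 2255) and from 1968 to 2494 in PEA (median 2214), with the PEA range inside the CON range. Its log2 fold change was -0.04 (SE 0.07). Tead4 (ENSMUSG00000030353, chr6:128201251-128277786, minus strand), a TEAD factor known for its induction during myoblast differentiation, ranged from 512 to 793 in CON (median 705) and from 588 to 748 in PEA (median 610). The PEA range was again inside the CON range. Its log2 fold change was -0.08 (SE 0.10), and it had the largest relative spread of the members in CON, 17.5% of the mean.

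**Figure D1:**
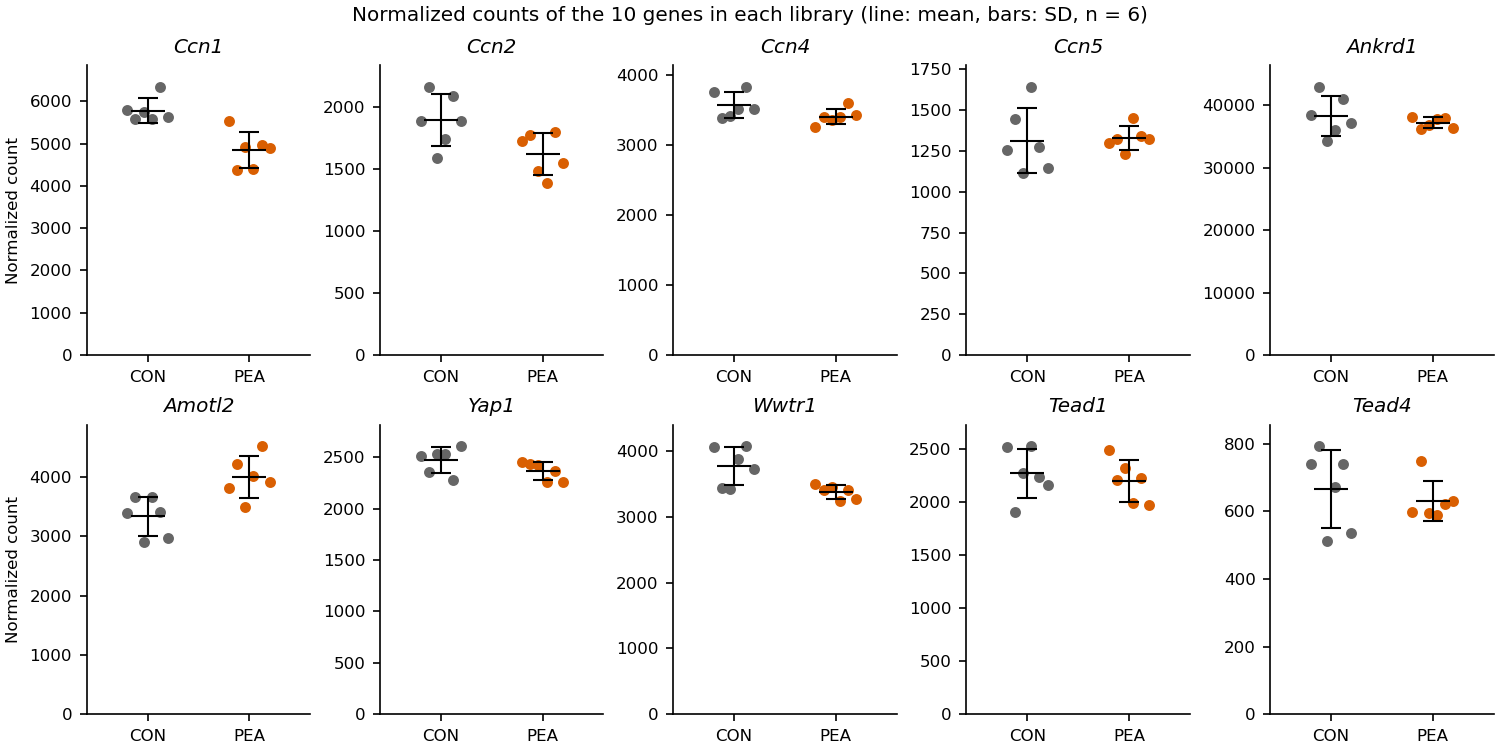
Normalized count (y axis, from 0) of each of the 10 genes in every library, with CON and PEA on the x axis, a point per library, a line at the mean and bars for the SD (n = 6 each). Only Ccn1 has no overlap between the groups, and for Amotl2 5 of the 6 PEA points lie above the highest CON point.

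By edgeR's quasi-likelihood test with an adjusted p below 0.05, 1 member was called lower (Ccn1) and 1 higher (Amotl2), where 4.74% of the 13142 genes tested were called lower, 6.31% higher and 11.0% in either direction. Groups did not overlap for 1 member, where 4.34% of all genes tested had no overlap. The count of members called was 4 under DESeq2 and 4 without CON replicate 3, in both cases with Ccn2 and Wwtr1 called lower besides Ccn1 and Amotl2. It was 1 without CON replicate 6, PEA replicate 2 or PEA replicate 5, where Amotl2 was not called, and 0 at a threshold of 0.01. Because the rule used this contrast, nothing is read from these counts. Of the 10 members 8 had a log2 fold change below 0, with a median of -0.06, where 48.7% of all genes tested lay below 0 and their median was 0.01. Within CON, the relative spread of the members ran from 5.02% (Ccn1) to 17.5% (Tead4), where the median over all genes tested was 10.2%.

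Other signals moved in the same libraries. All 8 markers of dividing cells rose (edgeR, adjusted p below 0.05), with a median log2 fold change of 0.72, and their summed normalized counts were 2880 to 7241 in CON and 7109 to 8672 in PEA. Of 10 myotube markers edgeR called 3 lower (Actn2, Tnnt3 and Myh8), where 4.74% of all genes tested were called lower. All 10 had a value below 0, with a median of -0.21. Myh8 passed narrowly (edgeR adjusted p = 0.0474), and DESeq2 called Acta1 in its place. Of 8 myoblast and reserve cell markers 1 rose (Cd34) and 1 fell (Id3) by edgeR. Values below 0 were found for 6 of them and above 0 for 2, with a median of -0.15. DESeq2 called Spry1 and Id2 as well (edgeR log2 fold changes -0.21 and -0.39). The sums of the 8 were 5145 to 5995 in CON and 5051 to 5810 in PEA. The part of these markers in the values of Ccn1 and Amotl2 was not tested, and in bulk RNA fewer cells of a type and less RNA per cell cannot be told apart.

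The annotation places a gene on the opposite strand over every member except Ccn5 and Amotl2. Counts were listed for 3 of these, Gm15270 over Ccn2 at a mean of 4.49 normalized counts, Gm16016 over Wwtr1 at 1.63 and 2310014F06Rik over Tead1 at 3.78, all far below the member they overlap. The antisense gene over Ccn1, Gm17501, was not analysed here. Whether the counting used strand is not given in the sources used here, so reads of a member and of its antisense partner cannot be told apart.

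The levels of the members were compared with each other within the CON libraries, a comparison between genes that the rule did not make, as normalized counts per kilobase of annotated exon length. Ankrd1 had the highest level at 12847 ± 1072 per kilobase (SD, n = 6), followed by Ccn1 at 2845 ± 143. Ccn5 (608 ± 92.3), Ccn2 (595 ± 66.5) and Ccn4 (587 ± 30.4) came next and lay close together. Amotl2 (473 ± 47.2), Wwtr1 (319 ± 24.7), Yap1 (264 ± 13.5), Tead1 (167 ± 17.2) and Tead4 (110 ± 19.1) completed the order. The top level, of Ankrd1, was 117-fold that of Tead4 per kilobase of exon and 60.1-fold per kilobase of coding sequence.

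Neighbours in that order were compared within libraries by a two-sided exact sign-flip permutation test, adjusted over 9 pairs. For 7 pairs the upper gene was higher in 6 of 6 libraries (exact p = 0.03125, the smallest that 6 libraries allow, adjusted p = 0.0402). Ccn5 and Ccn2 did not differ beyond their spread (exact test, adjusted p = 0.906), nor did Ccn2 and Ccn4 (exact test, adjusted p = 0.906). The test takes the 6 libraries as independent, although they are duplicate wells of 3 repeats, and with the 3 repeats as the unit no pair could pass. The order was found in the same libraries as the test. It also depends on the length used, since per kilobase of coding sequence the order was Ankrd1, Ccn1, Ccn4, Wwtr1, Tead1, Ccn5, Ccn2, Yap1, Amotl2 and Tead4, in which Ankrd1, Ccn1, Yap1 and Tead4 kept their places. In PEA Amotl2 (567 per kilobase) stood above Ccn4 (560) and Ccn2 (509) by exon length, and Ccn4 stood above Ccn2.

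**Figure D2:**
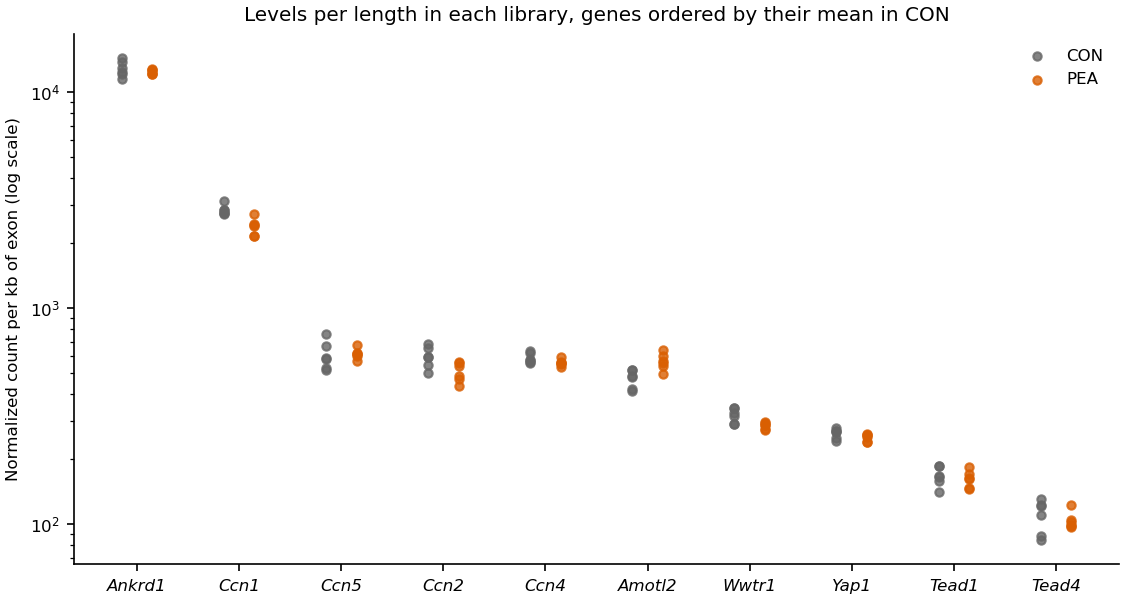
Normalized count per kilobase of annotated exon length (log axis) of the 10 genes in the CON and PEA libraries, with a point per library and the genes in the order of their CON means. Ankrd1 and Ccn1 stand above the others, and Ccn5, Ccn2 and Ccn4 lie together with means of 587 to 608 per kilobase in CON.

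The remaining genes of the pathway were read from lists. Of 8 other CCN, TEAD and VGLL genes 5 were in the table and tested. edgeR called 0 of 5, where 11.0% of all genes tested were called. By edgeR 3 had an unadjusted p below 0.05, and 0 were called by DESeq2 or limma-voom. The smallest p belonged to Vgll4, a TEAD-binding repressor of YAP activity, at a log2 fold change of 0.21 (SE 0.07, edgeR adjusted p = 0.0571), and it was called in 1 of 21 alternative fits. Its edgeR adjusted p ran from 0.0337 (without PEA replicate 3) to 0.139 when 1 library was left out. The median log2 fold change of the 5 tested genes was -0.14.

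Among 26 Hippo kinases and upstream regulators 25 were tested, 2 rose and 0 fell, where 11.0% of all genes tested were called, so the share of this list was near that of the table. It had 18 values above 0 and 7 below, with a median of 0.07. Ptpn14, a phosphatase that binds YAP and promotes its cytoplasmic retention, ranged from 1096 to 1521 normalized counts in CON and from 1577 to 1785 in PEA. It rose by 0.32 on the log2 scale (SE 0.07, edgeR adjusted p = 0.0116), and its groups did not overlap. Fat4, an atypical cadherin upstream of the cascade, went from 194 ± 38.1 to 282 ± 39.5 (SD, n = 6 each), a log2 fold change of 0.53 (SE 0.13, edgeR adjusted p = 0.0167). Both were called in all 21 alternative fits at the 0.05 threshold, while neither passed a threshold of 0.01 in the edgeR values given here. DESeq2 called 4 genes of this list, the same 2 higher and lower Amotl1 and Strn4 (edgeR log2 fold changes -0.14 and -0.13), and the groups of Strn4 did not overlap either. No kinase of the core cassette (Stk3, Stk4, Lats1, Lats2) passed the test.

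Of 18 genes of a YAP and TAZ target signature all 18 were tested, 3 rose and 0 fell, where 6.31% of all genes tested were called higher and 4.74% lower. It had 12 values above 0 and 6 below, with a median of 0.12. The list leaves out the targets Ccn1, Ccn2, Ankrd1 and Amotl2, which are members, so its count does not cover the lower Ccn1. The 3 were Ccdc80, Nuak2 and Ptpn14, which both lists hold. Ccdc80, a secreted matrix-associated protein, went from 826 ± 215 to 1361 ± 196 normalized counts (SD, n = 6 each), a log2 fold change of 0.73 (SE 0.14, edgeR adjusted p = 0.00492). Nuak2, an AMPK-related kinase, rose by 0.47 on the log2 scale (SE 0.14, edgeR adjusted p = 0.0347). Its call was lost under limma-voom and without any 1 of CON replicates 3, 4 and 5 or PEA replicates 1, 2, 4, 5 and 6, with an adjusted p of up to 0.0796.

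Of 12 surface receptors and coreceptors of CCN proteins 11 were in the table and 10 tested. edgeR called 0 of 10, where 11.0% of all genes tested were called, and 3 had an unadjusted p below 0.05. DESeq2 called 2 (Itgb3 and Itgb5) and limma-voom 0. Itgb5, the partner of integrin αv that binds vitronectin and CCN1, had the smallest p at a log2 fold change of 0.23 (SE 0.08, edgeR adjusted p = 0.0642), and it passed without CON replicate 2 or without PEA replicate 1. The fit with the replicate number as a block called both Itgb3 and Itgb5. The median of the tested receptors was -0.03.

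MRTF and SRF respond to actin dynamics and share targets such as Ccn1 with YAP and TAZ. Of 19 genes of that list all 19 were tested, 0 rose and 3 fell, where 6.31% of all genes tested were called higher and 4.74% lower. It had 15 values below 0, where 48.7% of all genes tested lay below 0, and a median of -0.12. Myl9, a regulatory light chain of nonmuscle and smooth muscle myosin, fell by 0.28 on the log2 scale (SE 0.05, edgeR adjusted p = 0.00473), from 1107 ± 71.1 to 913 ± 45.5 (SD, n = 6 each). Cnn2, an actin-binding calponin, fell by 0.25 (SE 0.05, edgeR adjusted p = 0.00659). Like Ccn1, both had no overlap between the groups. Actg2, a smooth muscle actin whose reads are prone to sharing with other actins, fell by 0.38 (SE 0.12, edgeR adjusted p = 0.0457), a call lost in 13 of 21 alternative fits, 9 of them without a single library (CON replicates 3, 4, 5 and 6 and PEA replicates 2, 3, 4, 5 and 6). Without CON replicate 2 the list had 6 calls.

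**Figure D3:**
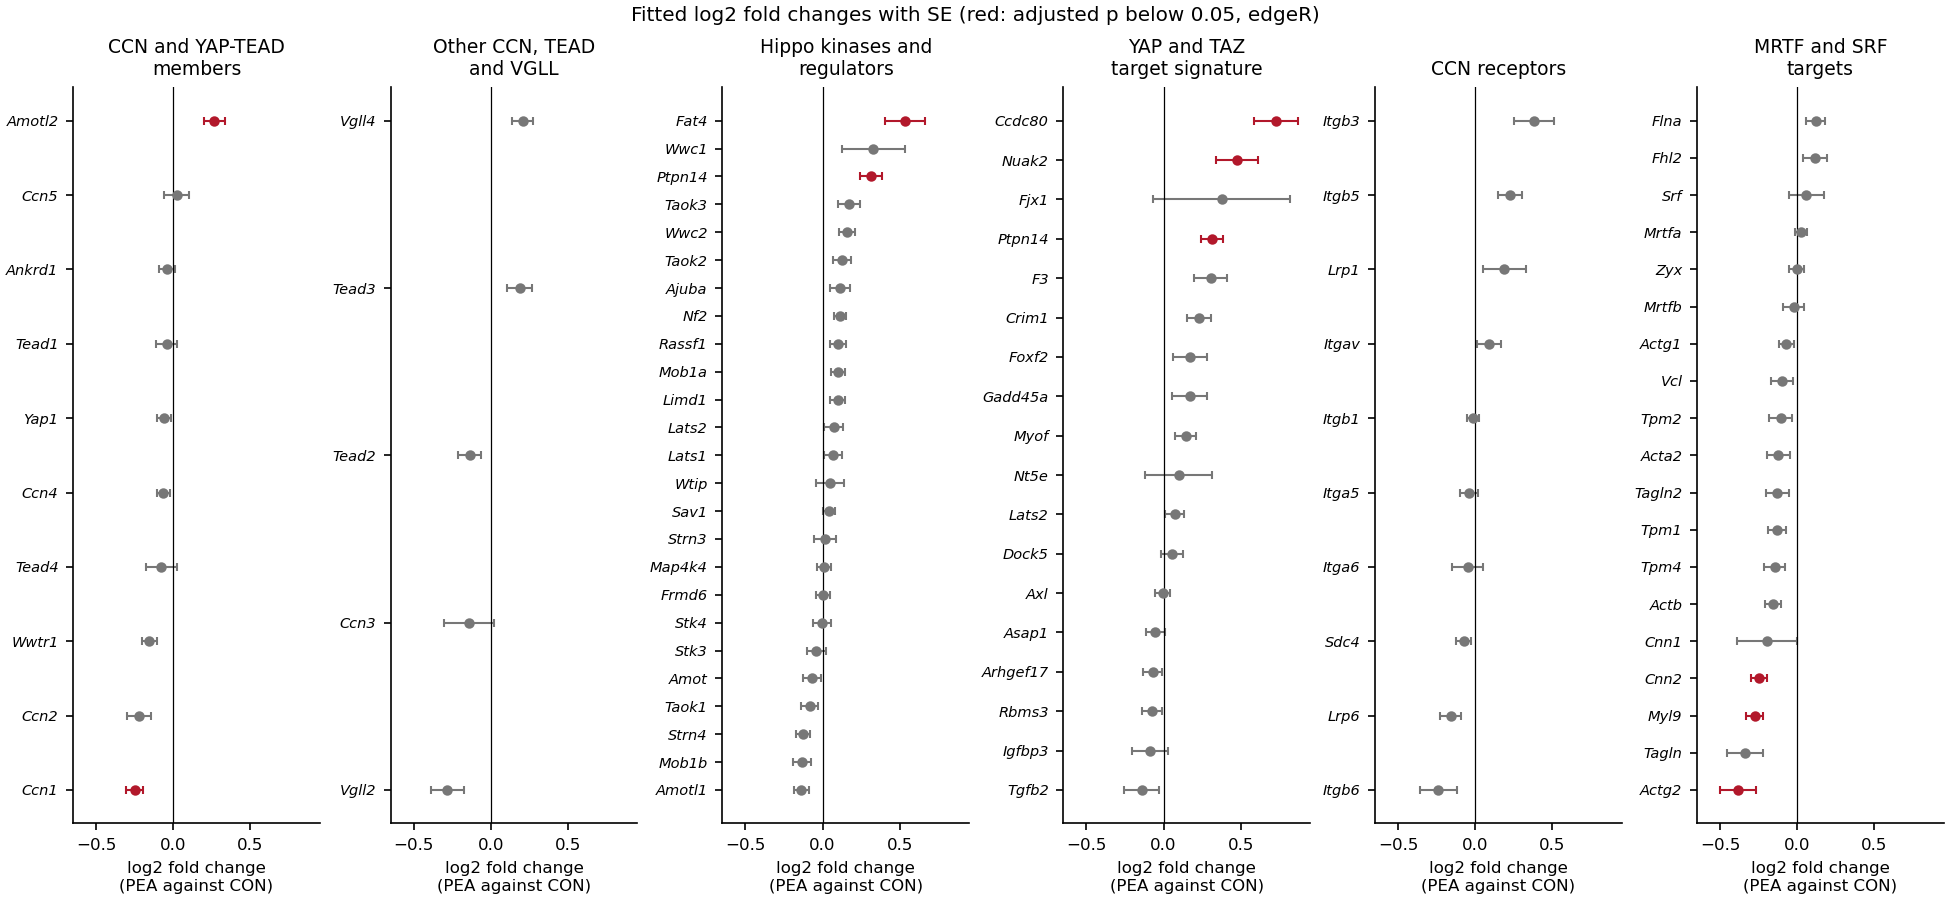
Fitted log2 fold change of PEA against CON (x axis, bars for the SE, 6 libraries per group) for the 10 members and the 5 pathway lists, with red for genes at an edgeR adjusted p below 0.05. Red points lie to the right for Amotl2, the Hippo list and the target signature, and to the left for Ccn1 and the MRTF and SRF list. The members were chosen because Ccn1 was lower in this contrast, so nothing is read from their red points.

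The promoter windows of 9 members were searched in the same way as those printed. GGAATG or its reverse complement stood in 5 of 9 member windows, where 14.0% of 21770 promoters held it. Besides Ccn1 and Amotl2 these were Yap1 with a match beginning at -77, Wwtr1 at -218, and Tead1 at -193, 28 and 40. Ankrd1, Ccn4, Ccn5 and Tead4 held none of these letters in the window. Bases outside the window and variants of the motif were not searched. The SRF CArG box stood in 0 of 9 member windows and in 1.54% of all promoters. The members include genes known as TEAD targets, so the count describes these windows and the choice of genes.

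**Figure D4:**
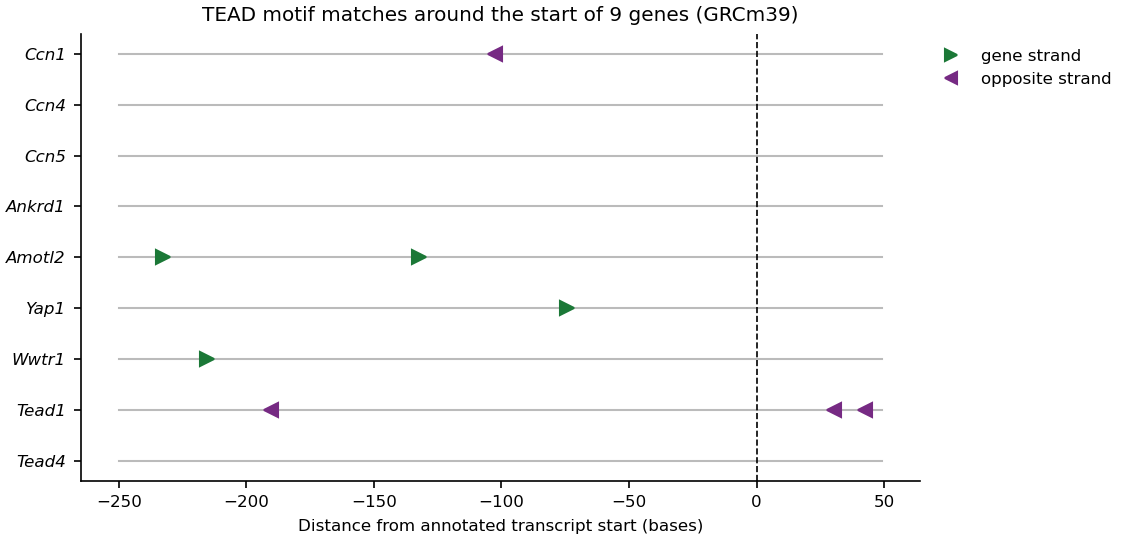
Positions of GGAATG in the window from 250 bases before to 50 bases from the annotated transcript start (x axis in bases, dashed line at the start) for 9 of the genes, with the pointing of the triangle giving the strand. Tead1 holds 3 matches, all on the opposite strand, and Ankrd1, Ccn4, Ccn5 and Tead4 hold none.

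Within treatments the members did not vary as a single unit. After the mean of each treatment was removed, Pearson's r over the 12 libraries ran from -0.60 (Ankrd1 with Yap1) to 0.76 (Ccn5 with Amotl2) over 45 pairs, with a median of 0.17. These pooled values can differ between the groups. For Ankrd1 with Yap1 r was -0.78 in CON and 0.06 in PEA, and for Ccn5 with Amotl2 0.90 and 0.56. The genes whose variation was most like that of Ccn1, among 11608 genes with a mean of at least 50 normalized counts, were Rbm8a2 (r 0.88, rho 0.85), Ets2 (r 0.88, rho 0.90), Mtrf1l (r 0.87, rho 0.87), Fibp (r 0.86, rho 0.75) and Ipo9 (r 0.85, rho 0.88). No member was among these 5 genes. Rbm8a2 is a near-identical copy of another gene and may share reads with it. The values are descriptive, since the genes were picked as the highest of many and duplicate wells make the libraries partly dependent.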

How the data were processed

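Wild-type C2C12 myotubes given vehicle or PEA were profiled by RNA-seq, with 6 libraries per group. The authors aligned reads with STAR 4.4.1d to mm39 and estimated gene counts with the Partek E/M model on an Ensembl annotation, and the deposited values are these expected counts, of which 45.0% of those above 0 were not whole (tolerance 0.001). A second deposited table holds the signal as normalized counts, made by the authors with 1 factor per library, and these are the levels printed. The authors used DESeq2. A top-up run of PEA replicate 2 was counted once. The table lists genes with at least 10 counts in all, and 2240 protein-coding genes with higher identifiers than its last column were not used here.

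Estimated counts were rounded and tested with edgeR 4.0.16 (R 4.3.3) by TMM, the default low-count filter (13142 genes kept) and the quasi-likelihood test, with Benjamini-Hochberg adjustment over all of them. The common biological coefficient of variation was 0.106. No covariate was used. Alternatives were DESeq2 1.42.0, limma-voom (limma 3.58.1), other size factors and filters, unrounded or thinned counts, the deposited normalized counts on the log2(value + 1) scale, the replicate block, a threshold of 0.01, and leaving out each library. Scripts were tested on simulated data. Library totals of 12354845 to 50397444 put every member at 470 or more counts in every library.

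Members and lists were chosen with earlier results of these data known. Named genes were all members, up to 4 called genes per list, the gene with the smallest p where none was called, and the 5 genes most like Ccn1. Itgb3, Amotl1, Strn4, the core Hippo kinases and the called markers were named after their values were seen. Positions and promoter sequences came from GRCm39 with GENCODE canonical starts, and the promoter of 1 member is not reported here. Gene symbols were found for 16343 identifiers.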

Additional observations from a re-analysis of the deposited data

Results flagged for a closer look

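Of 40 groups of 6 libraries tested for a single library far from the rest, 3 held such a library, and chance alone marks about 1 in 20 groups. Ccn1 in CON replicate 5 stood at 6344.2 normalized counts, while the other CON libraries lay between 5571 and 5796, and its log2 fold change without that library was -0.22. Tead4 in PEA replicate 2 stood at 747.9 normalized counts against 588 to 631 in the other PEA libraries. Its log2 fold change was -0.13 without that library and -0.08 with all libraries. The total of CON replicate 1 was 50397444 estimated counts against 12354845 to 19083862 in the other CON libraries, and the log2 fold changes without it were -0.25 for Ccn1 and 0.27 for Amotl2. The causes were not tested.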

How the results depend on the processing

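The 210 member fold changes from 21 alternative fits each stayed within 1 SD of the replicates. Under DESeq2 4 members (3 lower, 1 higher), 4 Hippo genes (2 higher, 2 lower) and 2 CCN receptors were called. At an adjusted p below 0.01 the calls were 405 of all genes, 0 members, 0 Hippo genes and 1 gene of the target signature, as a stricter threshold must lower them. The deposited normalized counts in limma gave 1 CCN receptor. Leaving out 1 library gave 778 to 2203 genes called, 1 to 4 members, 0 to 1 of the other CCN, TEAD and VGLL genes, 2 to 3 Hippo genes, 2 to 3 target genes, 0 to 2 receptors and 2 to 6 MRTF and SRF targets. The most genes were called without CON replicate 2 (2203) and the fewest without PEA replicate 6 (778), and counts also left the range of 1.5 times without CON replicate 6 (864) and PEA replicates 2 (906), 4 (963) and 5 (794). With 5 CON libraries 0 neighbour pairs of the level order can pass, since the smallest p is then 0.0625. Per coding length 6 pairs passed. The cause of the other changes was not tested.

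Same-numbered CON and PEA libraries did not deviate together (correlations from -0.0829 to 0.0649), so the numbers were not taken to pair the samples. With the replicate block 1570 genes were called against 1452, 3 members (Ccn1, Ccn2 and Amotl2), 2 receptors and 4 MRTF and SRF targets, and no library correlated best with its own number.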
